A study of Homo sapiens with 6 samples.

Results

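Bone morphogenetic proteins (BMPs) are secreted ligands whose target genes and secreted antagonists are described here in BJ fibroblasts given an siRNA against agrin. The set holds 9 genes, chosen by name from the 14168 genes of the deposited table, and all 9 are listed there. They are ID1, ID2, ID3, ID4, SMAD6, SMAD9, ATOH8, NOG and GREM1. BJ is an established line of normal human foreskin fibroblasts, labelled wild type here. Messenger RNA was sequenced from 3 libraries of cells given the agrin siRNA and 3 of cells given a control siRNA, all grown in RPMI medium with 10% serum. The sources used here give no siRNA sequence, dose or time. They do not say either whether each library is a culture of its own, so the p-values speak only of the spread between these libraries, which may be technical.

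BMP ligands bind pairs of receptor kinases, which phosphorylate the transcription factors SMAD1, SMAD5 and SMAD9. These enter the nucleus with SMAD4 and switch on a small set of genes that serve as markers of the pathway in many cell types, above all the ID genes. The cell restrains the signal through proteins that BMP itself can induce, such as the inhibitory SMAD6 and the secreted antagonist noggin. Dermal fibroblasts are known to secrete both BMPs and antagonists, among them gremlin.

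Of the 9 genes, 6 rose with the agrin siRNA. These were the 4 ID genes, ATOH8 and NOG, by between 32.4% for ID3 and 180.2% for NOG. The means of SMAD6 and SMAD9 differed by -4.04% and 1.29%, and that of GREM1, the most abundant of the 9, by -19.1%; none of these 3 passed the test. Over all 13206 genes tested, 15.2% were called higher and 13.5% lower at an adjusted p under 0.05 (limma, a linear model fitted across all genes, two-sided, Benjamini-Hochberg adjustment). The median log2 fold change was 0.40 over the 9 genes and -0.00012 over all tested genes. Values are the authors' deposited CPM and are called scaled CPM here. They sum to 1094374 to 1096534 per agrin siRNA library and to 1073188 to 1086025 per control siRNA library. With all libraries rescaled to equal sums, 1689 genes were called higher and 2082 lower, against 2005 and 1783 without. Log2 fold changes were computed after adding 0.5 to each value, so for genes of low level they come out smaller than the ratio of means.

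AGRN stood at 265 to 297 scaled CPM in the agrin siRNA libraries, against 744 to 804 in the control siRNA libraries. The libraries held 44321473 to 48246613 reads on listed genes with the agrin siRNA, against 42736368 to 44139864 with the control siRNA. All 10 fibroblast markers examined were expressed, and their summed level was 49197 to 51585 scaled CPM with the agrin siRNA and 51570 to 54268 with the control siRNA. Of these markers 4 were called lower (COL1A1, PDGFRB, LUM and FAP) and 0 higher. Endothelial cells also express ID1, ID3, SMAD6 and ATOH8. Of 6 endothelial markers 2 were listed. CDH5, which encodes VE-cadherin, had 0 reads in all 6 libraries, which allows a level of up to 0.0761 scaled CPM. TEK, the angiopoietin receptor, accounted for the rest of the summed level of 7.98 to 9.31 with the agrin siRNA and 7.004 to 7.80 with the control siRNA (limma adjusted p = 0.183). Leukocyte markers were not listed (0 of 6). Of 4 listed smooth muscle and pericyte markers CSPG4 rose (0.53 on the log2 scale, limma adjusted p = 0.000124) and RGS5 lower (-0.49, limma adjusted p = 0.0329). Of 6 epithelial markers 2 were tested and KRT8 was lower, and of 2 listed melanocyte markers MITF was lower. The part of these markers in the results below was not tested. In RNA from whole cultures, fewer cells of a type and less RNA per cell cannot be told apart.

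The ID genes rose and SMAD6 did not follow them, and the part of sequence in this was not tested. The stretches of genome just before these genes are shown as a description. Each runs over the 250 bases before the annotated start, 5′ to 3′ on the gene's strand, from RefSeq on GRCh38.p14. Capitals mark matches on either strand to GTCTAGAC, the palindrome bound by SMAD proteins, GGCGCC, the core of the GC-rich SMAD element, TATAAA, the TATA box, and CCAAT, which reads ATTGG on the other strand. Sequences of 8 of the 9 genes were matched by symbol, NOG being the exception. The windows of ID2 and ID3 lie inside the longer genes that GENCODE annotates there. So do those of ATOH8 and SMAD9 and that of the later annotated start of GREM1, which were searched but are not shown. The windows of ID1, SMAD6 and the first start of GREM1 run a short way into the GENCODE genes. The motifs were chosen after the fold changes were known.

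ID1 (chr20:31605039-31605288, plus strand): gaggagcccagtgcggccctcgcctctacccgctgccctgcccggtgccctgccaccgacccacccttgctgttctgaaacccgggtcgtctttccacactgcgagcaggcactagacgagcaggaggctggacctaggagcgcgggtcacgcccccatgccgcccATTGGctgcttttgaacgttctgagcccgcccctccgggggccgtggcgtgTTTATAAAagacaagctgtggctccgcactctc

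ID2 (chr2:8681806-8682055, plus strand): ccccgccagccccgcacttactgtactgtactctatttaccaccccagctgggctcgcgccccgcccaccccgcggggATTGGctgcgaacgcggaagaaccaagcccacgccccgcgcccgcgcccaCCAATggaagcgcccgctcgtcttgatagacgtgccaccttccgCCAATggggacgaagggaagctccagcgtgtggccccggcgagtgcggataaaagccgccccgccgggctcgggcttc

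ID3 (chr1:23559502-23559751, minus strand): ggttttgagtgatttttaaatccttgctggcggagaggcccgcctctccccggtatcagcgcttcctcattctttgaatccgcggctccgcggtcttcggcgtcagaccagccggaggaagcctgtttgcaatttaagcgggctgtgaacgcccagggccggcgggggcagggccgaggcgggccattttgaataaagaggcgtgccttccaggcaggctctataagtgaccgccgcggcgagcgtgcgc

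ID4 (chr6:19837120-19837369, plus strand): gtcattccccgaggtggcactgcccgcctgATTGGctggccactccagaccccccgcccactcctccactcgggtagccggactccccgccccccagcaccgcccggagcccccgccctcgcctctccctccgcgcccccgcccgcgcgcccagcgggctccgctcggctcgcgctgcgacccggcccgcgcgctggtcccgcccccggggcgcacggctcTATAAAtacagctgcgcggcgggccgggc

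SMAD6 (chr15:66701986-66702235, plus strand): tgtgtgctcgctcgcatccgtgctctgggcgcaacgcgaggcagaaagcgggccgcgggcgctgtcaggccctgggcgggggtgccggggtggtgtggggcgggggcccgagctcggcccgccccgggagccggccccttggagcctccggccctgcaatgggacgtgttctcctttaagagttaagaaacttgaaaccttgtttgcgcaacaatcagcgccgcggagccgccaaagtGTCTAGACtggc

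GTCTAGAC occurred before SMAD6, from position -12 relative to the RefSeq start, and before none of the other 7 genes matched. GENCODE begins SMAD6 at 66702228, inside this match. Of 35116 RefSeq windows of this length, 0.182% held it, and of the windows of tested genes 0.126%. GGCGCC occurred before GREM1, at -83 and -52 from the first of its annotated starts, and in 16.4% of all windows and 24.8% of those of tested genes. TATAAA was found before ID1 at -31, where a second copy on the other strand overlaps it, and before ID4 at -29; 10.7% of all windows and 5.70% of those of tested genes held it. CCAAT was found before ID1, ID2, ID4 and GREM1 and in 32.0% of all windows and 32.9% of those of tested genes. The window of ID3 held none of these letters. A match is a description of the sequence, and says nothing of whether a factor was bound. Only these windows were searched, so a motif missing from a window may lie elsewhere at the gene.

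The ID proteins dimerize with basic helix-loop-helix (bHLH) transcription factors but lack a region that binds DNA, and so hold their partners away from DNA. ID1 (ENSG00000125968.8, chromosome 20, 31605283 to 31606515) is widely used as a readout of BMP signalling. ID1 had 134, 126 and 137 scaled CPM in agrin siRNA replicates 1, 2 and 3, against 77.7, 80.0 and 80.8 in control siRNA replicates 1, 2 and 3. Every agrin siRNA library lay above every control library, by at least 45.1 scaled CPM. The means were 132 ± 5.58 and 79.5 ± 1.61 (SD, n = 3 each). This was a log2 fold change of 0.73, standard error 0.043 (limma adjusted p = 8.90e-06), and 112 of the 13206 tested genes had a larger one. Each ID1 value rests on 3077 to 6019 reads.

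ID2 (ENSG00000115738.9, chromosome 2, 8678845 to 8684453) is a family member that BMP also induces. Its values were 87.4, 82.8 and 100 (means 90.2 ± 9.18) with the agrin siRNA and 63.1, 59.7 and 62.8 (61.9 ± 1.89) with the control siRNA (SD, n = 3 each). The groups did not overlap, and the agrin siRNA libraries were more spread, with a coefficient of variation of 10.2% against 3.05% among controls. ID2 rose by 0.54 on the log2 scale, standard error 0.067 (limma adjusted p = 0.00049). ID2-AS1 is annotated on the opposite strand and overlaps the first part of ID2, up to position 8681863. The RefSeq start of ID2, at the end of the window shown above, lies after that position. No source used here gives the strand setting of the counting, so reads from the overlapping stretch cannot be told apart.

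ID3 (ENSG00000117318.8, chromosome 1, 23557918 to 23559794) had 178, 166 and 183 scaled CPM with the agrin siRNA, against 132, 134 and 132 with the control siRNA. The controls had a coefficient of variation of 0.727%, less than the counting error of their 5215 to 5446 reads. All agrin siRNA libraries were at least 32.5 scaled CPM above the controls. The means were 176 ± 8.56 and 133 ± 0.964 (SD, n = 3 each), a log2 fold change of 0.40 (standard error 0.043, limma adjusted p = 0.000212).

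ID4 (ENSG00000172201.11, chromosome 6, 19837386 to 19840684) was the least abundant family member, at 7.78, 6.28 and 7.88 scaled CPM with the agrin siRNA and 5.81, 4.82 and 5.88 with the control siRNA. The groups came close, with a gap of 0.399 scaled CPM between the lowest agrin siRNA library and the highest control. The means were 7.31 ± 0.894 and 5.50 ± 0.593 (SD, n = 3 each) and each library held between 190 and 347 ID4 reads. On the log2 scale the difference was 0.38, standard error 0.11 (limma adjusted p = 0.0267). The ID4 call was lost without agrin siRNA replicate 1 (limma adjusted p = 0.0603), agrin siRNA replicate 3 (0.104), control replicate 1 (0.0578) or control replicate 2 (0.102). AL022068.1 is annotated on the opposite strand and overlaps the first part of ID4, up to position 19839080.

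Summed over the 4 ID genes, the level was 407, 381 and 428 scaled CPM in agrin siRNA replicates 1, 2 and 3, against 278, 278 and 282 in control siRNA replicates 1, 2 and 3. The makeup of this sum shifted as well. ID1 stood at 0.754, 0.758 and 0.748 times the scaled CPM of ID3 in the agrin siRNA libraries, against 0.590, 0.599 and 0.610 times in the control libraries. The ratios of the 2 groups did not overlap; this pair was picked after its values were seen and was given no test. 

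ATOH8 (ENSG00000168874.12, chromosome 2, 85751344 to 85788066) encodes a bHLH transcription factor that BMP signalling induces in endothelial cells and hepatocytes. It had 37.0, 33.3 and 38.4 scaled CPM with the agrin siRNA, against 23.6, 24.9 and 24.6 with the control siRNA, without overlap. The means were 36.2 ± 2.64 and 24.3 ± 0.654 (SD, n = 3 each), and ATOH8 rose by 0.56 on the log2 scale, standard error 0.060 (limma adjusted p = 0.000212). Its fold change was below that of ID1 and close to that of ID2. Without agrin siRNA replicate 1, the log2 fold change was 0.55 for ATOH8 and 0.56 for ID2.

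**Figure D1:**
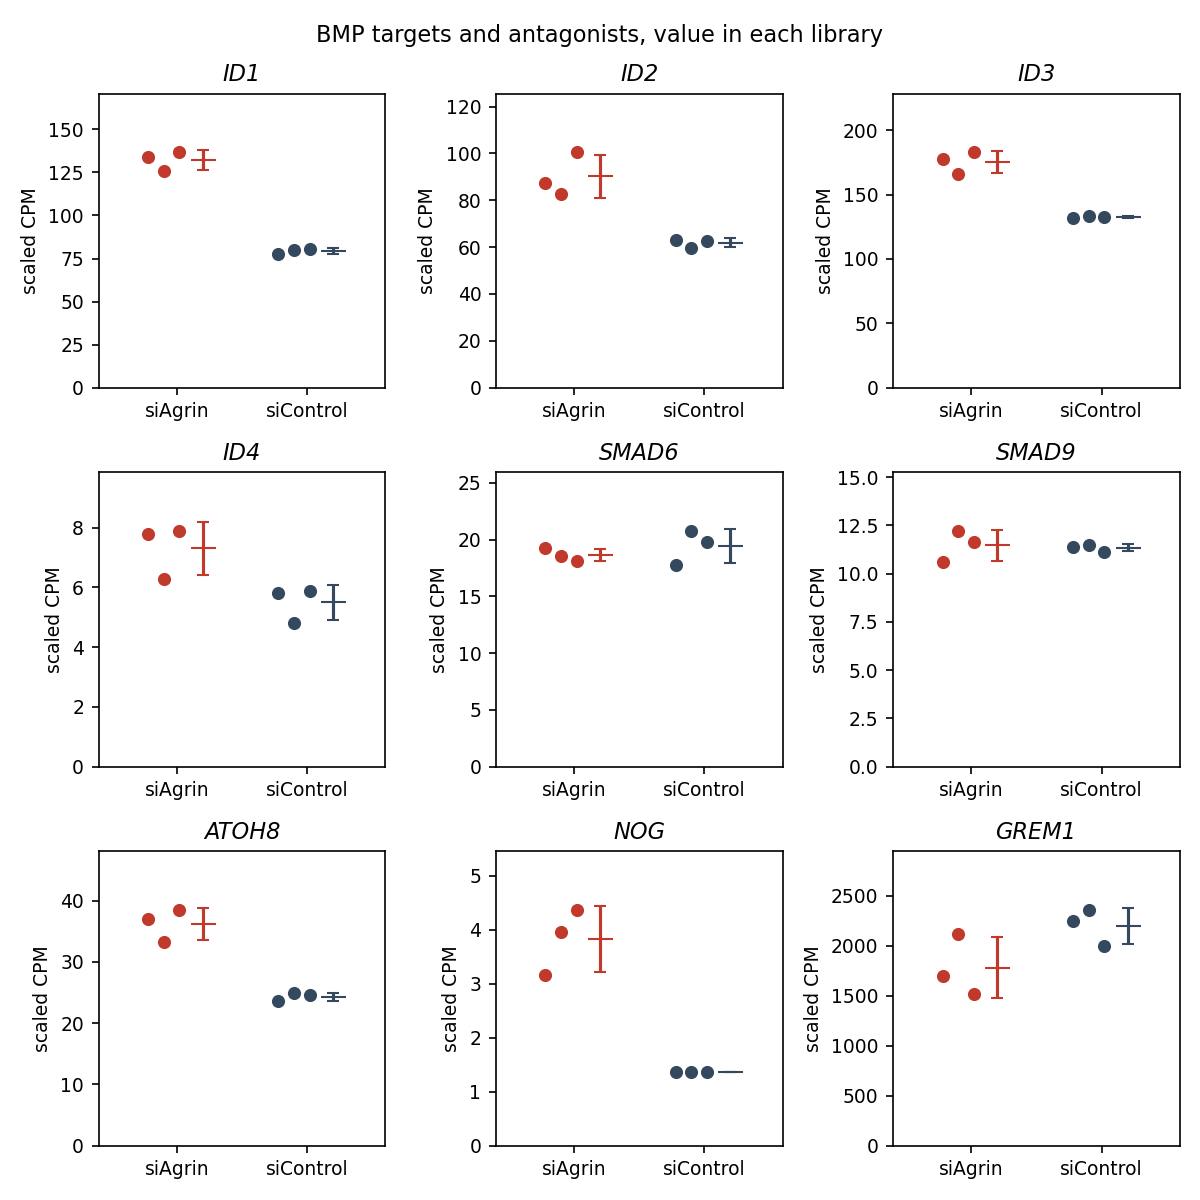
Scaled CPM (vertical axes, from 0) of each of the 9 genes in the 3 agrin siRNA libraries (siAgrin, red) and the 3 control siRNA libraries (siControl, dark), with replicates 1 to 3 from left to right and the mean ± SD beside them. The groups are apart for ID1, ID2, ID3, ID4, ATOH8 and NOG and overlap for SMAD6, SMAD9 and GREM1.

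SMAD6 (ENSG00000137834.14, chromosome 15, 66702228 to 66782848) encodes an inhibitory SMAD that blocks BMP receptors and SMAD1, and is itself a known BMP target. SMAD6 had 19.2, 18.6 and 18.1 scaled CPM with the agrin siRNA, against 17.8, 20.7 and 19.8 with the control siRNA. The agrin siRNA libraries all fell inside the range of the controls. On the log2 scale the difference was -0.056 (limma adjusted p = 0.554), and its 95% interval of the fold, 0.870 to 1.06, leaves out a rise of the size seen in any ID gene.

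SMAD9 (ENSG00000120693.13, chromosome 13, 36844831 to 36920765) encodes a SMAD that BMP receptors phosphorylate, and its own transcript can rise with BMP signalling. SMAD9 had 10.6, 12.2 and 11.6 scaled CPM with the agrin siRNA, against 11.4, 11.5 and 11.1 with the control siRNA. The agrin siRNA libraries lay on both sides of the controls. The difference was 0.016 on the log2 scale (limma adjusted p = 0.880), with a 95% interval of the fold of 0.911 to 1.12. Its sign changed when the libraries were rescaled to equal sums (-0.0023) and without agrin siRNA replicate 2 (-0.027).

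NOG (ENSG00000183691.4, chromosome 17, 56593699 to 56595590) encodes noggin, which binds BMPs and keeps them from their receptors. It had the largest fold change of the 9 genes and the lowest scaled CPM. NOG stood at 3.16, 3.96 and 4.36 scaled CPM with the agrin siRNA, against 1.36, 1.37 and 1.36 with the control siRNA. In reads this was 128, 170 and 192 per agrin siRNA library, against 54, 54 and 56 per control library. The means were 3.83 ± 0.610 and 1.37 ± 0.00461 (SD, n = 3 each), a ratio of 2.80. The control values had a coefficient of variation of 0.337%, less than the counting error of so few reads. In log2 terms the fold change was 1.20, standard error 0.12 (limma adjusted p = 0.000124), and 18 tested genes had a larger one. On the reads recovered from the deposited values, which need no pseudocount of 0.5, edgeR's quasi-likelihood test gave 1.48 (adjusted p = 0.00015).

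GREM1 (ENSG00000166923.10, chromosome 15, 32717974 to 32745107) encodes gremlin 1, a secreted protein that binds BMP2, BMP4 and BMP7. GREM1 had 1700, 2114 and 1521 scaled CPM in agrin siRNA replicates 1, 2 and 3, against 2244, 2353 and 1995 in control siRNA replicates 1, 2 and 3. Agrin siRNA replicate 2 lay among the controls and the other two lay below them, so the groups overlapped. The means were 1778 ± 304 and 2197 ± 184 (SD, n = 3 each), and on the log2 scale the difference was -0.32, standard error 0.11 (limma adjusted p = 0.0608). Its fold had a 95% interval of 0.676 to 0.956. The call depended on 1 library and on the processing: without agrin siRNA replicate 2 the log2 fold change was -0.45 (limma adjusted p = 0.000694). It also passed in limma with values rescaled to equal sums (adjusted p = 0.0458) and with quantile normalization (adjusted p = 0.0303), and in DESeq2 (adjusted p = 0.00943). In 12 of 17 alternatives GREM1 did not pass, among them edgeR on the recovered reads (adjusted p = 0.0592) and limma without trend (adjusted p = 0.0991). AC090877.2 is annotated on the opposite strand at the start of GREM1.

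**Figure D2:**
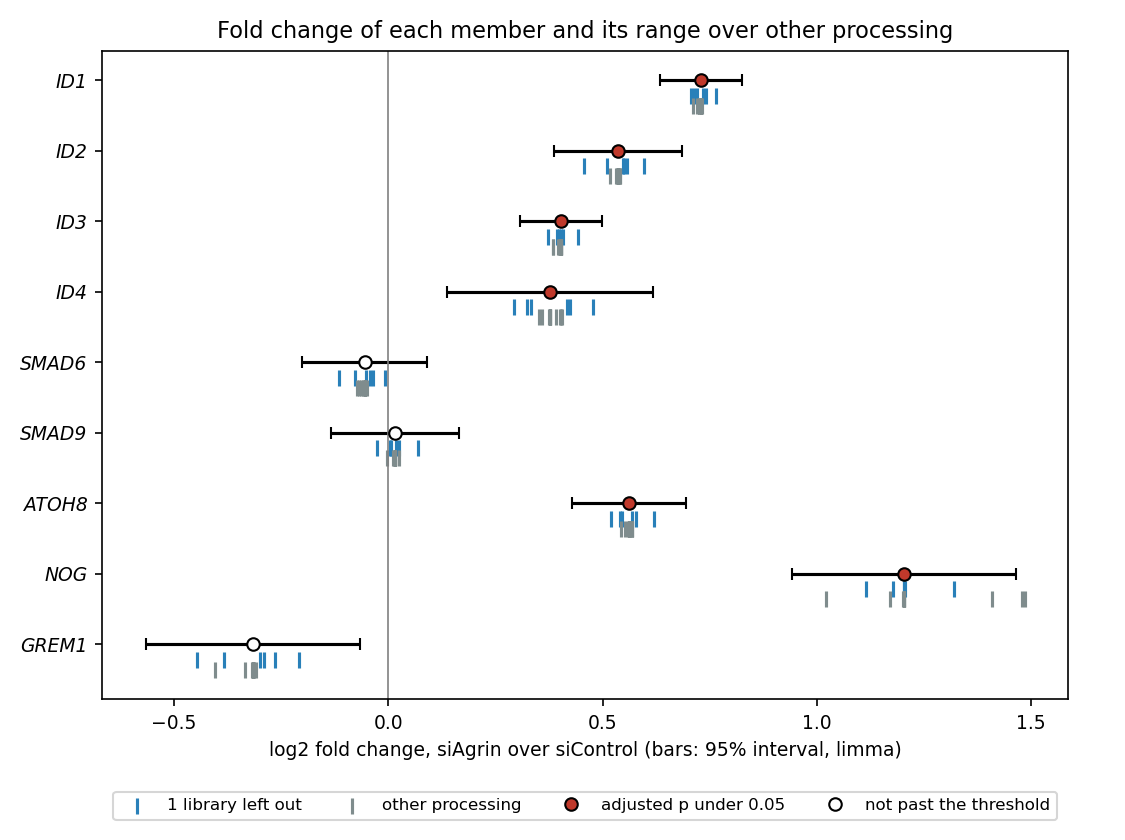
Log2 fold change (horizontal axis) of the agrin siRNA over the control siRNA libraries for each gene, with its 95% interval from limma; filled points have an adjusted p under 0.05. Ticks under each point give the value with 1 library left out (blue) and under the other processing alternatives (grey): those of ID1, ID2, ID3, ID4, ATOH8 and NOG are all above 0, those of SMAD9 lie on both sides of it.

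Together, the groups did not overlap for 6 of the 9 genes, against 45.2% of all tested genes. In the control mean the 6 called genes ran from 1.37 scaled CPM (NOG) to 133 (ID3). Among these 6, agrin siRNA replicate 2 was the lowest of its group in 5, NOG being the exception with its lowest value in replicate 1. GREM1 ran the other way within the agrin siRNA group, with its highest value in replicate 2 and its lowest in replicate 3. Agrin siRNA replicate 3 was the highest of its group for 6 of the 9 genes.

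**Figure D3:**
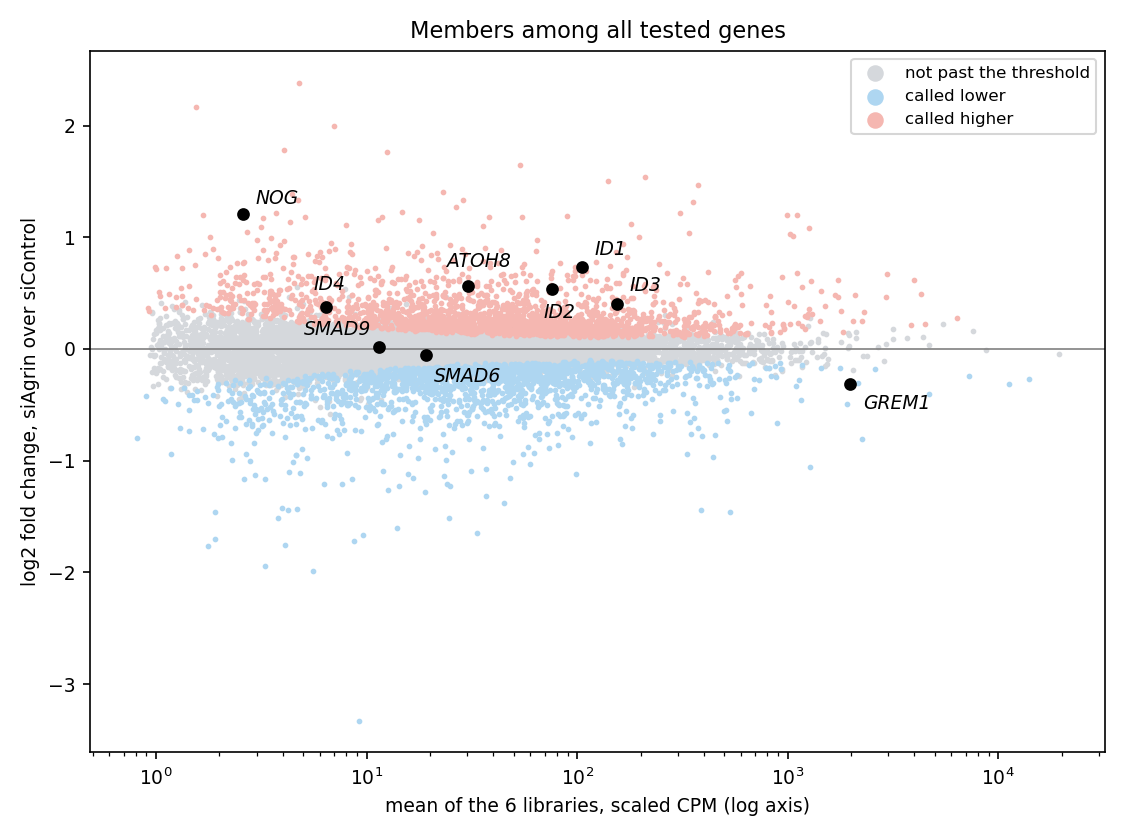
Mean scaled CPM over the 6 libraries (horizontal, log axis) against the log2 fold change of agrin siRNA over control siRNA (vertical) for all 13206 tested genes, with the 9 genes in black. NOG lies among the low genes at 1.20, the ID genes and ATOH8 between 0.38 and 0.73, SMAD6 and SMAD9 near 0, and GREM1 among the most abundant genes at -0.32.

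To compare levels between genes, scaled CPM was divided by the length of all annotated exons of a gene, in kilobases. For ID1 this length covers the whole gene, intron included, for ID3 nearly the whole gene, and for GREM1 it is 14.6 kb. These levels may be too low. So may those of genes that GENCODE begins before the RefSeq start, such as ID2. In the agrin siRNA group GREM1 was highest at 122 ± 20.8 per kb, then ID1 at 107 ± 4.53, ID3 at 97.7 ± 4.76 and ID2 at 40.9 ± 4.17 (SD, n = 3). In the control group the order was GREM1 at 150 ± 12.6, ID3 at 73.8 ± 0.536, ID1 at 64.5 ± 1.30 and ID2 at 28.1 ± 0.856. ID1 and ID3 thus changed places, although by this length only, since the ratio of their reads stayed below 1 in both groups.

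The other genes were far lower per kb. ATOH8 stood at 5.96 ± 0.434 with the agrin siRNA and 4.01 ± 0.108 with the control siRNA, and ID4 at 3.12 ± 0.381 and 2.35 ± 0.253. SMAD6 stood at 2.18 ± 0.0643 and 2.27 ± 0.174 in the same order, SMAD9 at 2.01 ± 0.140 and 1.98 ± 0.0319, and NOG at 2.02 ± 0.322 and 0.722 ± 0.00243 (SD, n = 3 each). With the agrin siRNA, GREM1 overlapped ID1, and SMAD6, NOG and SMAD9 overlapped each other. With the control siRNA, of the neighbours in this order only ID4 and SMAD6 overlapped. NOG was below both SMADs in every control library.

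**Figure D4:**
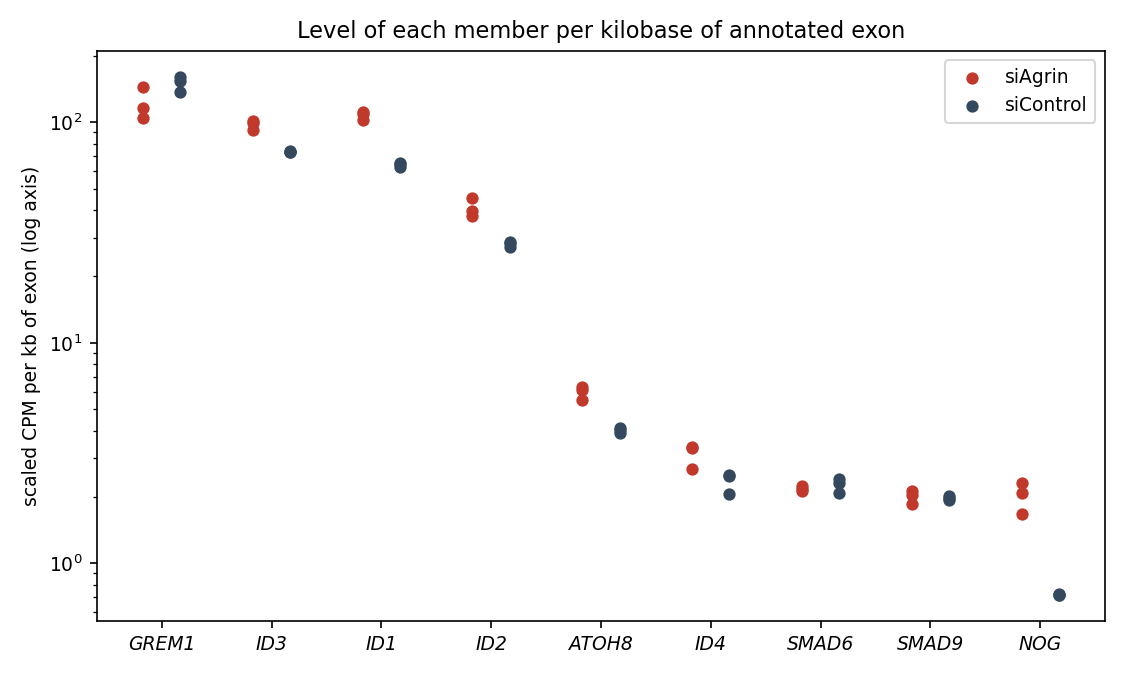
Scaled CPM per kilobase of annotated exon (vertical, log axis) of the 9 genes in each agrin siRNA library (red, left) and control siRNA library (dark, right), ordered by the control mean from GREM1 at 150 to NOG at 0.722. GREM1 and the ID genes ID1, ID2 and ID3 stand above the other 5 genes in both groups.

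Other genes of the pathway were taken from lists of ligands, receptors, SMADs, modulators, targets and partners. Of 61 genes on these lists 44 were in the table and 40 were tested. With the agrin siRNA 7 of them rose, 9 fell and 24 did not pass, against 28.7% called in either direction over all tested genes. Their median log2 fold change was -0.013.

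Among ligands, 4 were tested and 1 was lower. GDF7, a BMP-like growth factor known from the developing spinal cord, had 1.68 ± 0.239 scaled CPM with the agrin siRNA and 4.24 ± 0.0681 with the control siRNA (SD, n = 3 each), a difference of -1.13 on the log2 scale (limma adjusted p = 8.57e-05). The ligands BMP4 (log2 fold change 0.11, limma adjusted p = 0.287), GDF5 (0.16, 0.218) and BMP2 (0.10, 0.633) did not pass. Of 10 receptors and co-receptors, the kinases ACVR1 (-0.0027), ACVRL1 (-0.021), BMPR1A (-0.088) and BMPR2 (-0.11) did not pass (limma adjusted p from 0.241 to 0.966). Repulsive guidance molecules, which are BMP co-receptors, went in both directions. RGMA had 1.42 ± 0.315 and 3.79 ± 0.424 scaled CPM with the agrin and control siRNA (log2 fold change -1.17, limma adjusted p = 0.000323). RGMB had 199 ± 12.5 and 156 ± 3.93 (0.35, limma adjusted p = 0.000954; SD, n = 3 each). Endoglin, ENG, a co-receptor best known from endothelium, was higher by little (log2 fold change 0.19, limma adjusted p = 0.0455). Its groups overlapped, and the ENG call was lost in 11 of 17 alternatives, among them 5 of the 6 that leave out 1 library (limma adjusted p from 0.0656 to 0.154).

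SMAD1, SMAD5 and SMAD4 were slightly lower. SMAD1 had 15.2 ± 0.406 scaled CPM with the agrin siRNA and 18.4 ± 0.428 with the control siRNA (SD, n = 3 each), a difference of -0.27 on the log2 scale (limma adjusted p = 0.00514). SMAD5 was at -0.25 (limma adjusted p = 0.0215) and the shared partner SMAD4 at -0.20 (limma adjusted p = 0.0132). The SMAD5 and SMAD4 calls were lost without agrin siRNA replicate 3 (limma adjusted p = 0.0778 and 0.0599) and without control replicate 1 (0.0917 and 0.0713), and that of SMAD5 also without control replicate 2 (0.0713). SMURF2, a ubiquitin ligase that targets SMADs and receptors, rose (0.40 on the log2 scale, limma adjusted p = 0.00991), and SMURF1 did not pass (0.13, limma adjusted p = 0.0874).

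Of 10 other secreted antagonists and modulators 2 were higher and 2 lower. FST, follistatin, which binds activins and some BMPs, had 126 ± 12.5 scaled CPM with the agrin siRNA and 94.4 ± 3.90 with the control siRNA (log2 fold change 0.41, limma adjusted p = 0.00189). The BMP-binding protein CHRDL1 had 10.2 ± 0.303 and 7.84 ± 0.521 (0.37, limma adjusted p = 0.00437; SD, n = 3 each). FSTL3 (-0.27, limma adjusted p = 0.0337) and FSTL1 (-0.18, limma adjusted p = 0.0466), follistatin relatives, were lower, although the groups of FSTL3 overlapped; both calls were lost without agrin siRNA replicate 3 (limma adjusted p = 0.128 and 0.166), control replicate 1 (0.118 and 0.154) and control replicate 2 (0.132 and 0.168). The FSTL1 call was also lost without agrin siRNA replicate 1 (0.0884) and control replicate 3 (0.0652).

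Of 8 other target genes 2 were higher and 0 lower. That is 25.0% called, about the 28.7% called in either direction over all tested genes, and their median log2 fold change was 0.055. TNFRSF11B, which encodes the decoy receptor osteoprotegerin, had 1385 ± 168 scaled CPM with the agrin siRNA and 942 ± 121 with the control siRNA (SD, n = 3 each), a difference of 0.56 on the log2 scale (limma adjusted p = 0.00407). SMAD7, an inhibitory SMAD induced by both TGF-beta and BMP, was at 0.28 (limma adjusted p = 0.0141), and its call was lost without agrin siRNA replicate 3 (limma adjusted p = 0.064), control replicate 2 (0.0647) or control replicate 3 (0.0572). MSX1 (-0.21), MSX2 (0.18), RUNX2 (0.11), HEY1 (-0.0054), HES1 (-0.11) and BAMBI (-0.050) did not pass (limma adjusted p from 0.0994 to 0.978).

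The E proteins are the bHLH partners that ID proteins bind. TCF4 had 166 ± 7.51 scaled CPM with the agrin siRNA and 222 ± 6.65 with the control siRNA (SD, n = 3 each), a difference of -0.42 on the log2 scale (limma adjusted p = 0.000214). TCF12 was at -0.14 (limma adjusted p = 0.0441), and its call was lost in 8 of 17 alternatives, with 1 library left out in 5 of them (limma adjusted p from 0.0783 to 0.14). TCF3 did not pass (-0.11, limma adjusted p = 0.0937). The ID genes were higher and TCF4 was lower, each without overlap between the groups, which held for 45.2% of all tested genes. The groups of TCF3 and TCF12 did not overlap either. Whether the ID genes and the E proteins are linked in these cells was not tested.

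**Figure D5:**
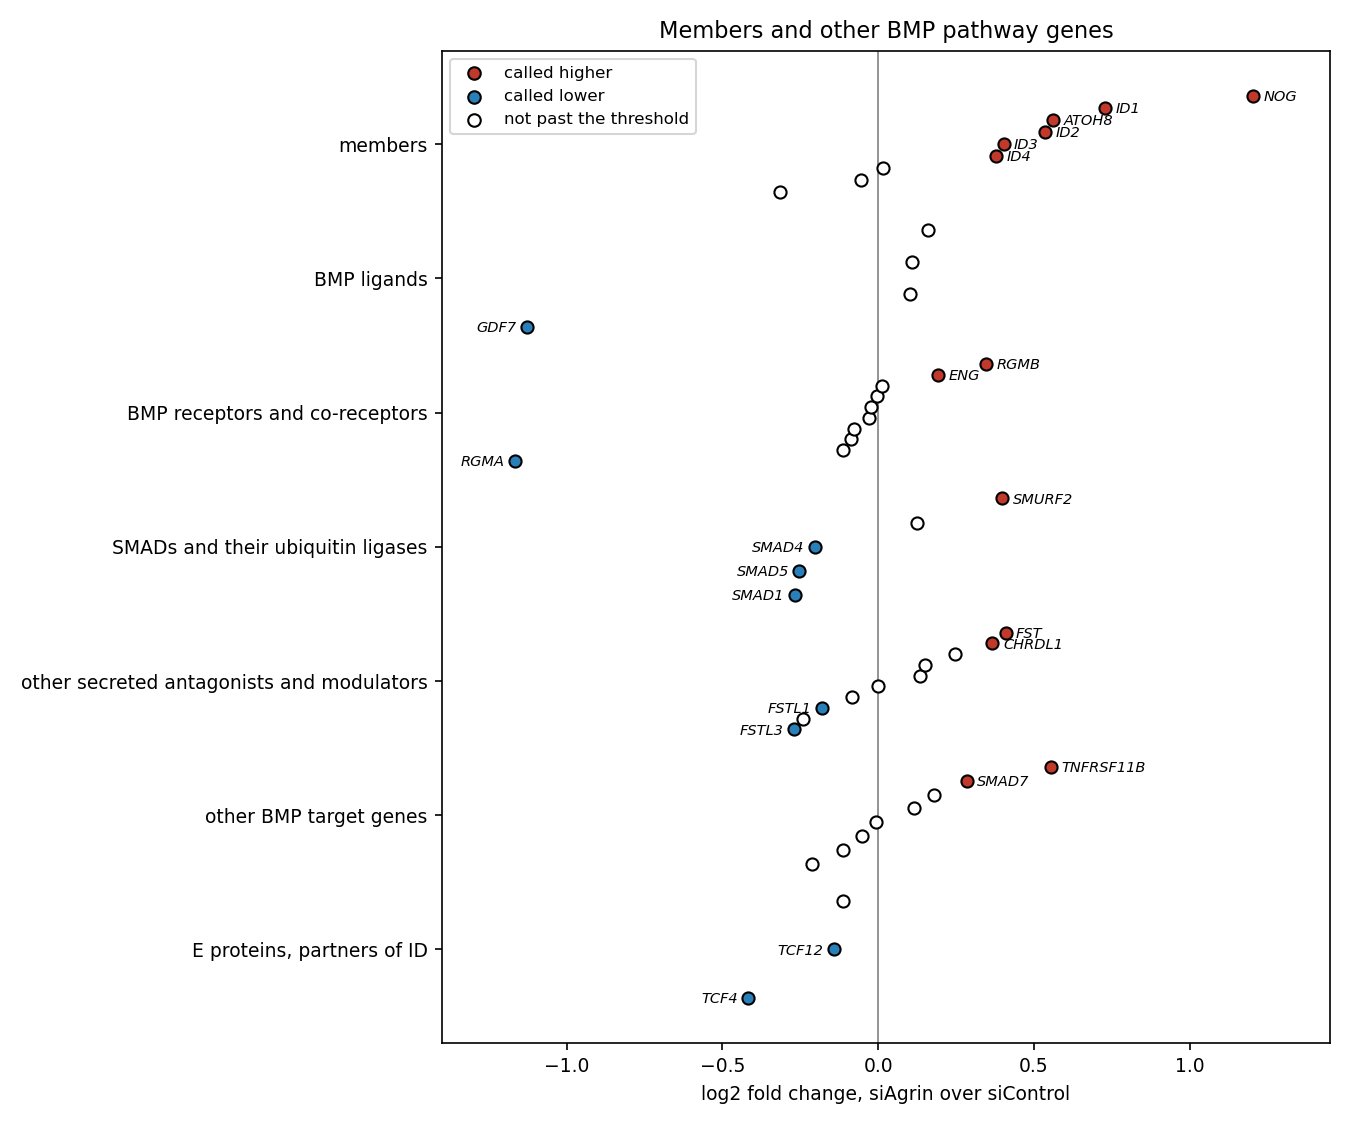
Log2 fold change of agrin siRNA over control siRNA (horizontal axis) for the 9 members and the 40 tested genes of the other pathway lists (rows); red points were called higher, blue points lower and open points did not pass. GDF7 and RGMA lie near -1.1 to -1.2, SMAD1, SMAD5 and SMAD4 between -0.27 and -0.20, and 6 of the 9 members to the right of 0.

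Likeness was measured as the Pearson correlation over the 6 libraries with 11337 genes of a mean of at least 5 scaled CPM. The genes most like ID1 were MICB, TRPV2 and DDR1 (r = 0.999 each), with log2 fold changes of 0.27, 0.48 and 0.36. The genes most like GREM1 were RCN2 (r = 0.997), CITED2 (0.997) and CEP70 (0.993), of which 0 passed the test (limma adjusted p from 0.0897 to 0.142). These values are given as a description, over libraries that share the 2 groups.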

How the data were processed

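RNA-seq of 6 BJ libraries was used, with groups and replicate numbers from the labels. Per the labels, libraries came from 2.5 μg of total RNA with a stranded mRNA kit. The submitters' processing notes name build hg38 and the tools edgeR, HTSeq, SAMtools and STAR 2.6.1d. The deposited values are a normalized signal that the authors call CPM; columns sum to 1073188 to 1096534. Every value was a whole multiple of 1 step per library (100.0% within 0.01 of a read), so whole reads were recovered for the count tests.

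The design had assumed CPM; the test was kept. Genes reaching a value of 1 in 3 or more libraries entered limma 3.58.1 (variance trend, no covariate, pseudocount 0.5) in R 4.3.3. Alternatives were other pseudocounts, filters and scalings, no trend, edgeR 4.0.16, DESeq2 1.42.0, the replicate number as a block, and each library left out. Genes named are the members, AGRN, up to 4 called genes per pathway list, and the 3 genes most like ID1 and GREM1; others were chosen after their values were seen. Members and lists were chosen with earlier results of these data known. Coordinates are from GENCODE 29 on GRCh38. Of the symbols, 14144 matched 1 gene. Figures were drawn with matplotlib 3.10.9.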

Additional observations from a re-analysis of the deposited data

How the results depend on the processing

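The fold changes of ID1, ID2, ID3, ATOH8 and NOG kept their direction and their call in each alternative in which they were tested; NOG was not tested with a mean of at least 5. NOG was lowest at 1.02 (pseudocount 1) and highest at 1.48 (DESeq2). SMAD6 passed in 0 of 17 alternatives. GREM1 passed and 1 member was called lower instead of 0 when values were rescaled to equal sums (-0.33), with quantile normalization (-0.40), with DESeq2 (-0.31) and with the replicate block (-0.32, adjusted p = 0.00527). SMAD9 was at -0.0023 when rescaled. Leaving out 1 library at a time gave log2 fold changes of 0.29 to 0.48 for ID4, -0.45 to -0.21 for GREM1 and -0.027 to 0.068 for SMAD9. It gave 0 to 1 members called lower, 4 to 10 pathway genes called lower, and 1121 to 2538 higher and 940 to 2586 lower genes overall. With agrin siRNA replicate 3 left out, 1251 genes were higher, 1118 lower and 4 pathway genes lower. Leaving out control replicate 1 gave 1121, 940 and 4, leaving out control replicate 2 gave 1257, 1063 and 5, and leaving out agrin siRNA replicate 2 gave 2538, 2586 and 10; all libraries gave 2005, 1783 and 9. Rescaling gave 1689 higher and 2082 lower genes, against 2005 and 1783. The causes were not tested. Samples with the same replicate number correlated at -0.037, 0.175 and 0.202 in their deviations from the group means. Samples with unlike numbers correlated at -0.325 to 0.147. With 3 libraries a group these values cannot decide whether the numbers mark pairs, and the numbers were not taken as pairs. The block gave 1905 higher and 1775 lower genes. Of 16 called pathway genes, 9 kept their call in every alternative that tested them. At this depth 3 reads correspond to 0.0681 to 0.0761 scaled CPM.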

Other observations

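The nearest listed gene on either side of each member was looked up after the members' values were known. All 18 neighbours were tested, and with the agrin siRNA 3 were higher and 2 lower. That is 27.8% of them, against 28.7% called over all tested genes, so the neighbours were called about as often as other genes and nothing about these loci follows from the values below. HM13, a signal peptide peptidase gene 27.4 kb from ID1, differed by 0.19 on the log2 scale (limma adjusted p = 0.0133), and BCL2L1, which encodes the survival factor BCL-XL, 57.9 kb from ID1 on the other side, by 0.25 (limma adjusted p = 0.00106). ST3GAL5, which encodes the enzyme that makes the ganglioside GM3, 49.1 kb from ATOH8, differed by -0.44 on the log2 scale (limma adjusted p = 0.001). KIDINS220, 36.6 kb from ID2, was lower (-0.26, limma adjusted p = 0.00597). RNF144B, the nearest listed gene before ID4 at 1369 kb, was higher (0.42, limma adjusted p = 0.0161). SCG5 and FMN1, which flank GREM1 at 20.9 and 20.4 kb, did not pass (0.084 and 0.047, limma adjusted p = 0.7 and 0.783).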
